A study of Mus musculus with 12 samples.

Results

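DNA methylation was compared between 2 immortalized mouse embryonic fibroblast (iMEF) lines at 12, 16 and 20 days after doxycycline, the latest stage of an *Sdhc*-loss time course. The members were the 6 of 12 libraries labelled with these days, 3 from the experimental line and 3 from the control line, with 1 library per line and day. Both lines carry R26M2rtTA/+, a doxycycline-responsive activator expressed from the *Rosa26* locus, and TetOcre, a Cre recombinase gene under a Tet operator. The experimental line is *Sdhc* fl/fl and the control line *Sdhc* fl/wt, so doxycycline at 1 µg/mL, given to both lines, leaves the control line with 1 unrearranged *Sdhc* allele. Each genotype is represented by a single cell line derived from embryos. The 3 days of a line stand in for replicates here, and p-values therefore measure the spread between days of the same culture, not between independent lines.

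*Sdhc* encodes a membrane anchor subunit of succinate dehydrogenase, the enzyme that oxidises succinate to fumarate in the tricarboxylic acid cycle and feeds electrons to the respiratory chain. Cells without the enzyme accumulate succinate, which competes with 2-oxoglutarate at dioxygenases such as the TET enzymes, and TET enzymes start the removal of methyl groups from cytosine. Most promoters rich in CpG dinucleotides are unmethylated in fibroblasts, whereas the DNA between genes is largely methylated. The comparison asks which promoters, gene families and single cytosines differed between the lines once *Sdhc* had been rearranged for the longest time measured.

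Reduced representation bisulfite sequencing (RRBS) reads CpGs near restriction sites, and the beta value used below is the fraction of methylated calls at a cytosine, from 0 to 1. The 6 libraries listed between 932307 cytosines, in the control library of day 12, and 1710336, in the experimental library of day 16, and 703012 autosomal cytosines were listed in all 6. The files hold no read counts, so the depth behind a beta value is unknown. In the control library of day 12 only 9.12% of the shared cytosines lay between 0.2 and 0.8, against 19.2% to 25.4% in the other 5. The experimental libraries of days 12 to 20 listed 1270 to 1622 cytosines on the Y chromosome and the control libraries 181 to 204, and the mean beta value on the X chromosome was 0.415 to 0.439 against 0.496 to 0.522. The sex chromosomes therefore separated the lines, and the same split stood at day 0 (1553 against 166 Y cytosines). A difference between the lines from *Sdhc* genotype and a difference from the embryos of origin cannot be told apart in these data, and day 0 values are given below beside many of the promoters.

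Mean methylation was slightly higher in the experimental line. Over the shared autosomal cytosines the library means were 0.431, 0.422 and 0.428 at days 12, 16 and 20 in the experimental line and 0.421, 0.418 and 0.415 in the control line. All experimental means lay above all control means, with a difference of 0.00943 (0.427 ± 0.0046 against 0.418 ± 0.0029, SD, n = 3). A two-sided exact permutation test gave p = 0.1, the smallest value that 3 against 3 libraries allow. Inside promoters the means were 0.104 and 0.0981, and outside promoters 0.575 and 0.564, again with no overlap. When every listed autosomal cytosine of each library was averaged the difference was 0.0111 and the exact p was 0.4.

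The difference in mean level did not appear only late. On the 606488 autosomal cytosines listed in all 12 libraries the experimental line was higher by 0.00639 at day 0, by 0.0104 and 0.0162 at days 5 and 9, and by 0.0107, 0.00495 and 0.0133 at days 12, 16 and 20.

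Around protein-coding gene starts both lines had the same valley-shaped profile. Mean beta values fell from above 0.6 several kilobases upstream to a minimum of 0.0516 in the experimental line and 0.0461 in the control line just after the start. The experimental mean was higher in 38 of 40 bins of 250 bp within 5000 bp of the start, by at most 0.0227, and all 3 experimental libraries lay above all 3 control libraries in 18 bins. The largest of these differences lay at the outer ends of the profile, and the bins nearest the start differed by 0.00507 and 0.00552.

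**Figure D1:**
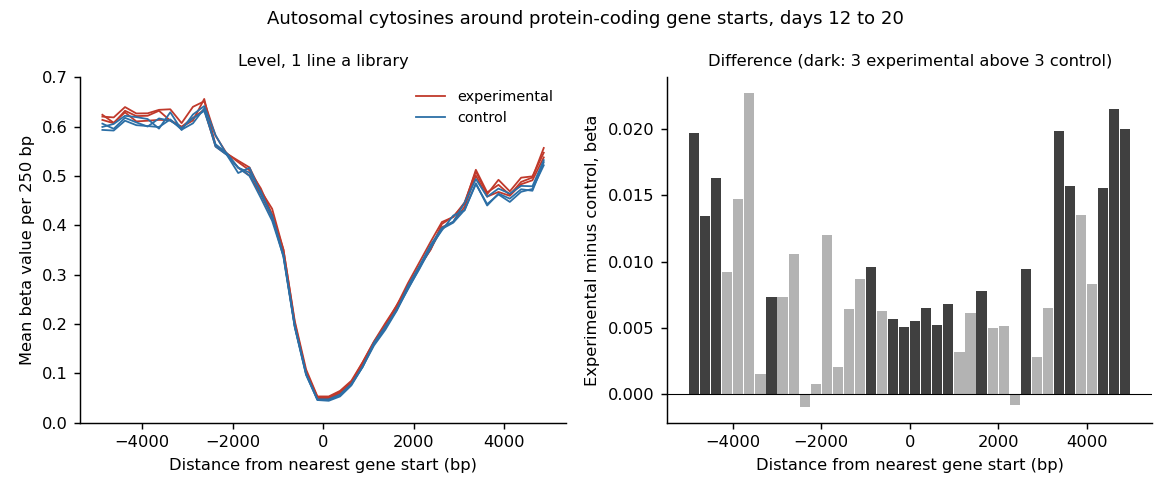
Mean beta value of autosomal cytosines by distance from the nearest protein-coding gene start in bins of 250 bp, with 1 curve per library (left, red experimental, blue control) and the experimental mean minus the control mean (right, dark where all 3 experimental libraries were higher). The curves run together down to 0.0516 and 0.0461 near the start, and 38 of 40 differences are above 0.

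Promoters, taken as the 1500 bp before to 500 bp after a start with at least 3 shared cytosines, were mostly low in both lines and mostly alike. The median difference over 13785 promoters was 0.0029. With limma on M-values (the log2 ratio of methylated to unmethylated fraction, offset 0.01), 4 promoters had a Benjamini-Hochberg adjusted p below 0.05, 3 higher and 1 lower in the experimental line, which is 0.029% of those tested. The unadjusted p was below 0.05 for 1921 promoters (13.9%).

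Of the 4 promoters past the threshold, 3 belonged to non-coding RNA genes. The promoter of Gm51701, a long non-coding RNA gene on chr9:123923648-123925647 (GRCm38.p6, plus strand), averaged 0.017, 0.0196 and 0.0295 over 18 cytosines in the 3 experimental libraries, against 0.754, 0.771 and 0.758 in the controls. This was the widest separation among the 25 promoters named by rule or past the threshold, nearly unmethylated in the experimental libraries and mostly methylated in the controls (difference on the M-value scale -6.60, SE 0.19, adjusted p = 0.0044 in limma). The same contrast was already there at day 0, with 0.0291 against 0.713.

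The opposite pattern was seen at 3110053B16Rik, a non-coding transcript on chr12:20920812-20922811 (minus strand). Its 18 cytosines averaged 0.375, 0.379 and 0.472 in the experimental line and 0 in each control library, an M-value difference of 6.13 (SE 0.20, adjusted p = 0.0044 in limma). The day 0 values were 0.242 and 0. Among the 4, 3300002I08Rik on chr2:150362456-150364455 was the protein-coding gene, and its 6 cytosines were low in both lines, at 0.0892, 0.0987 and 0.106 against 0 in all controls (M-value difference 3.58, SE 0.13, adjusted p = 0.0048 in limma). At day 0 it stood at 0.142 and 0.0217. With every control library at 0, both of these M-value differences depend on the offset, and with an offset of 0.05 they were 3.91 for 3110053B16Rik and 1.71 for 3300002I08Rik.

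The fourth promoter, of the long non-coding RNA gene 5830432E09Rik, lies within the gene bounds of *Ptpre*, a receptor-type tyrosine phosphatase gene, at chr7:135651815-135653814 (minus strand). Only 4 cytosines were shared there, and they averaged 0.762, 0.676 and 0.727 in the experimental line against 0.117, 0.117 and 0.126 in the control line (M-value difference 4.13, SE 0.19, adjusted p = 0.014 in limma). At day 0 the values were 0.72 and 0. For all 4 promoters the line that was higher late was therefore also the higher one before doxycycline, and none had a late difference that differed from that at day 0 by the interaction test described below (adjusted p between 0.0776 and 0.982 in limma).

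The count of 4 depended on single libraries. Without the control library of day 16 no promoter passed limma, with 1635 at an unadjusted p below 0.05, whereas 22 passed without the experimental library of day 16 and 9 without that of day 12. When limma was run directly on beta values, 21 promoters passed, 11 higher and 10 lower.

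The remaining promoters named here were the leading ones in each direction among those with 5 or more cytosines, no overlap between the lines and a difference of 0.2 or more, and they did not pass the threshold (adjusted p between 0.066 and 0.131 in limma). They are given as values. Of those higher in the experimental line, 5 belong to protein-coding genes.

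*Sh2b3*, which encodes an adaptor that restrains cytokine receptor signalling, stood at 0.447, 0.464 and 0.491 in the experimental libraries and at 0.151, 0.185 and 0.172 in the controls, over 15 cytosines. The groups were well apart, and at day 0 they stood at 0.54 and 0.162. *Rcor2*, a corepressor of the CoREST complex, had 0.38, 0.334 and 0.389 against 0.12, 0.139 and 0.16 over 22 cytosines. Its day 0 values were closer, at 0.334 and 0.252, and at days 5 and 9 the experimental line was higher by 0.246 and 0.365. *Gpx7*, an oxidoreductase of the endoplasmic reticulum, had 0.507, 0.555 and 0.581 against 0.285, 0.274 and 0.31, and both lines were higher at day 0 (0.778 and 0.63). *Col9a3*, a chain of the cartilage collagen type IX, had 0.477, 0.547 and 0.543 against 0.275, 0.258 and 0.291 over 33 cytosines, from 0.576 and 0.37 at day 0.

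*Hoxa6*, a homeobox gene whose promoter also lies within the bounds of *Hoxa3*, had the widest difference of this group, at 0.836, 0.872 and 0.876 against 0.158, 0.399 and 0.264. It was the same at day 0 (0.888 and 0.341). The long non-coding RNA gene *Tunar* had 0.306, 0.321 and 0.26 against 0.0833, 0.0963 and 0.0711, and 0.412 and 0.102 at day 0. *Wbscr25*, Gm35922, Gm35155 and Gm33595, all non-coding, differed by 0.226, 0.284, 0.332 and 0.391. At Gm35155 the order at day 0 was the opposite one, with 0.698 in the experimental line and 0.8 in the control line. It did not pass the contrast with day 0 described below (adjusted p = 0.769 in limma).

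The promoters that were lower in the experimental line were led, after Gm51701, by *Sult2b1*, a cholesterol sulfotransferase gene, with 0.0859, 0.114 and 0.0774 in the experimental line against 0.475, 0.581 and 0.518 in the control line over 26 cytosines. The day 0 values were 0.0284 and 0.599. *Smarca5*, the ATPase of ISWI chromatin remodelling complexes, had 0.00365, 0.00348 and 0.0193 against 0.448, 0.296 and 0.236, with the control library of day 12 the highest. Methylation at *Smarca5* was thus near 0 in every experimental library, as it was at day 0 (0.00207 against 0.254).

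*Pomc*, the precursor of adrenocorticotropic hormone and other peptides, had 0.197, 0.183 and 0.158 against 0.439, 0.572 and 0.451 over 13 cytosines. The lines were nearer each other at day 0, at 0.192 and 0.267, and the differences at days 5 and 9 were -0.391 and -0.139. *Abcb9*, a lysosomal peptide transporter gene, had 0.104, 0.108 and 0.147 against 0.345, 0.303 and 0.311, and at day 0 the lines stood at 0.0197 and 0.392. *Igtp*, an interferon-induced GTPase gene, had a tight 0.574, 0.579 and 0.572 against 0.892, 0.922 and 0.84 over 5 cytosines, with 0.566 and 0.92 at day 0. *Sox2*, a pluripotency and neural transcription factor gene that lies within the bounds of the non-coding gene *Sox2ot*, had 0.11, 0.16 and 0.16 against 0.517, 0.379 and 0.391, from 0.208 and 0.548 at day 0.

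The other named promoters of this direction were *Flywch2*, *Zfp637*, *Sar1b*, LOC115486434 and Gm39990, with differences of -0.215, -0.228, -0.204, -0.372 and -0.401. LOC115486434 starts within the bounds of *Kcns1*, a potassium channel subunit gene, and Gm39990 starts near *Pard6b*, a cell polarity gene. At day 0 these were already apart, LOC115486434 at 0.337 and 0.756 and Gm39990 at 0.0993 and 0.598. *Sar1b*, a GTPase of vesicle coats leaving the endoplasmic reticulum, was at 0.0308 or lower in every experimental library of days 12 to 20. At day 0 the lines stood at 0.0499 and 0.367. No experimental library of days 12 to 20 showed methylation at *Zfp637*, and the controls of these days had 0.4, 0.0842 and 0.2.

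**Figure D2:**
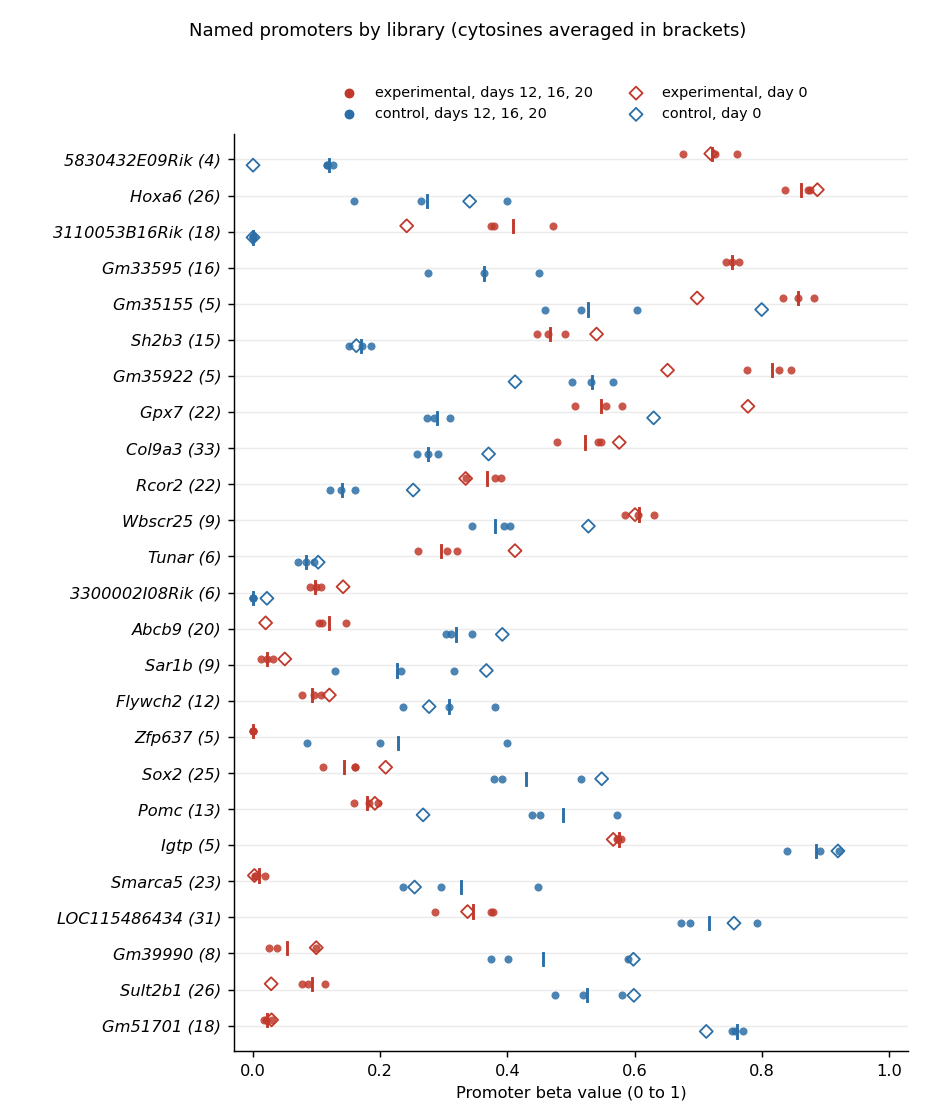
Promoter beta values of the 25 promoters named by rule or past the threshold, with 1 filled point per library of days 12, 16 and 20 (red experimental, blue control), vertical bars at the mean of 3, and open diamonds for the day 0 libraries where listed. Gm51701 is nearly unmethylated in the experimental line on all 3 days and at day 0. In the control line it is near 0.76 on the 3 days and at 0.713 at day 0. At *Pomc* and *Rcor2* the day 0 diamonds, 1 library per line, stand closer together than the late points. Neither passed the contrast with day 0 (adjusted p 0.815 and 0.63 in limma).

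The bases behind some of these values are shown for promoters with measured CpGs beside the start. Each run is RefSeq sequence of GRCm38.p6, 250 bases before to 50 after a start, 5′ to 3′ on the strand of the gene, and capitals mark the CpGs that were measured in all 6 libraries. *Rcor2* lies at chr19:7267144-7267443 (plus strand), *Pomc* at chr12:3954695-3954994 (plus strand) and *Smarca5* at chr8:80739410-80739709 (minus strand).
Rcor2: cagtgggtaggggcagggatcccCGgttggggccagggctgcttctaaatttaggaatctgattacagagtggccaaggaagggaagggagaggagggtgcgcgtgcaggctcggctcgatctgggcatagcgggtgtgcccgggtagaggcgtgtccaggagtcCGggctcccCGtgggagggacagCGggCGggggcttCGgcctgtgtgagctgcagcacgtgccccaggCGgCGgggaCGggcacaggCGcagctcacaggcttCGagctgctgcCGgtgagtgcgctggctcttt
Pomc: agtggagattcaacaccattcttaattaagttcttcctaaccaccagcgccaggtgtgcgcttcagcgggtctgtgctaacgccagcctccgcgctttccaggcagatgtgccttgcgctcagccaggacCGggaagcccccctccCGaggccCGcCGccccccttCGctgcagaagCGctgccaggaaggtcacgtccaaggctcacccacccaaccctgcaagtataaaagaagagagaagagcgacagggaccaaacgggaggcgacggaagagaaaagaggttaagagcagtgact
Smarca5: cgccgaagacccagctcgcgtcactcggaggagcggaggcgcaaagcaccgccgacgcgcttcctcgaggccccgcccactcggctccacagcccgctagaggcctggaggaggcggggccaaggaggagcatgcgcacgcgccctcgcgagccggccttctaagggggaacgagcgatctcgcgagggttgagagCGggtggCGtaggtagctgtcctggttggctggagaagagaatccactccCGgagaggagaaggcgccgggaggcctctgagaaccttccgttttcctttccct

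In *Rcor2*, 12 of the 21 CpGs of this window were measured and averaged 0.237, 0.232 and 0.261 in the experimental line against 0.00103, 0.0513 and 0.129 in the control line. In *Pomc*, 6 of 18 were measured, and they averaged 0, 0.111 and 0 against 0.667, 0.833 and 0.667. In *Smarca5*, 3 of 32 were measured, downstream in the window, with 0, 0.0267 and 0.111 against 0.5, 0.429 and 0.431. The groups did not overlap in any of the 3 windows. The motif CCGG, at which RRBS libraries are usually cut, reads the same on both strands. The windows of *Rcor2*, *Pomc* and *Smarca5* hold 4, 1 and 3 copies, and 52.8% of 32851 RefSeq promoter windows of 300 bases hold at least 1.

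Counted without a test, more promoters were shifted up than down. All 3 experimental values lay above all 3 control values in 2137 promoters (15.5%) and below them in 619 (4.49%). Most of this excess came from promoters with very low methylation. Among the 7965 promoters with a mean below 0.05, 16.2% lay above and 1.61% below, with a median difference of 0.00255, whereas among the 935 promoters with a mean over 0.8 the shares were 8.66% and 9.20%. Leaving out each library in turn gave 19.8% to 23.7% above and 6.33% to 8.28% below. These shares can only rise, because fewer libraries make it easier for the lines not to overlap.

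Larger differences were fewer. With 5 or more cytosines, no overlap and a difference of at least 0.2, there were 140 promoters higher and 67 lower in the experimental line. Those higher had a median level of 0.548 against 0.21 in the control line, and those lower 0.2 against 0.525. They were covered by medians of 8 and 9 cytosines, fewer than the 17 of all 12030 promoters with 5 or more, and 63.6% and 67.2% belonged to protein-coding genes against 81.4% of those 12030. They lay on 18 and 19 of the autosomes. Without the control library of day 12, the one with the fewest cytosines, the counts were 176 and 75, under a no-overlap rule that fewer libraries meet more easily.

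Whether such differences were there before doxycycline could be asked for 196 of these 207 promoters, whose cytosines were listed in all 12 libraries. At day 0, 91 of them (46.4%) already differed by 0.2 or more in the same direction and 102 (52.0%) differed by less than 0.2. Of these 102, 49 differed by 0.1 to 0.2 in the same direction and 47 by less than 0.1 either way. Of the 196, 9 differed by 0.1 or more in the opposite direction. The median late difference was 0.266 in size, and the median of the same promoters at day 0, counted in the late direction, was 0.182. The promoters were picked on their late values and not on day 0, so a smaller day 0 median can come from that choice alone. Neither these medians nor the 102 can therefore decide whether the differences grew after doxycycline. Over all 13141 promoters measured in the 12 libraries, the late and the day 0 differences had a Pearson correlation of 0.403 and a Spearman correlation of 0.263 across promoters, which share libraries within each day and are not independent replicates.

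**Figure D3:**
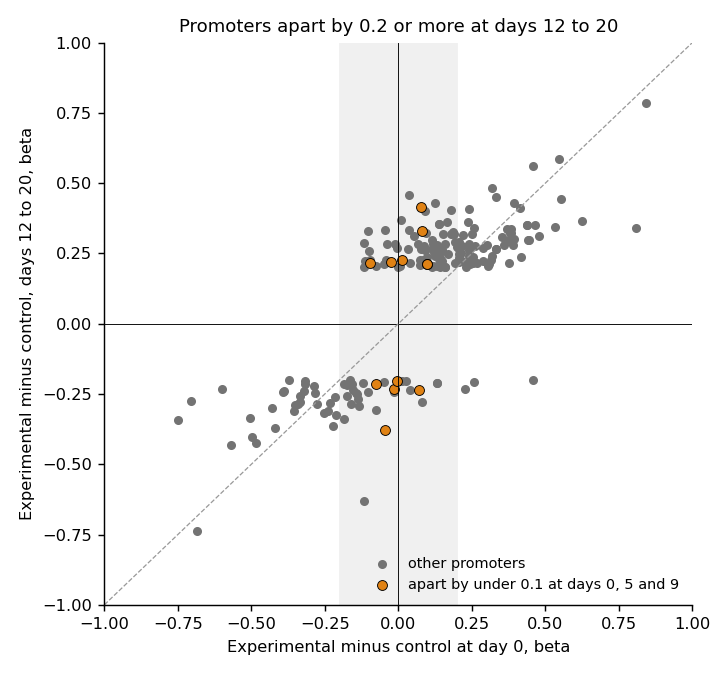
Experimental minus control beta value at days 12 to 20 against that at day 0, for the 196 promoters apart by 0.2 or more late and measured in all 12 libraries. Points near the dashed diagonal had the same difference at day 0, the grey band marks day 0 differences under 0.2 (102 promoters), and orange points are the 12 promoters apart by less than 0.1 at days 0, 5 and 9.

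A limma contrast over all 12 libraries tested whether the late difference between the lines differed from that at day 0. It called 3 of 13141 promoters (0.0228%), each with 4 cytosines. The 207 with the large late differences had to have 5 or more cytosines, so none of the 3 could be among them. LOC108168713, 1 of the 3, was itself higher in the experimental line by 0.263 late with no overlap. Of the 207, 196 were in this contrast, and the lowest adjusted p there was 0.175 in limma. Each line has 1 library at day 0, which was assumed to vary like the other groups. Against days 5 and 9, limma called none of 13141 promoters, with 669 at an unadjusted p below 0.05.

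A small set of promoters was alike in the lines at every earlier day. Of the 196, 12 differed by less than 0.1 at each of days 0, 5 and 9, and 7 of them were higher and 5 lower in the experimental line late. These were picked on their values, so they are described and not tested. *Kcnj5*, a gene for an inwardly rectifying potassium channel subunit, had 0.296, 0.21 and 0.342 in the experimental line against 0.0625, 0.0567 and 0.085 in the control line late, over 16 cytosines. At day 0 it was at 0.0767 and 0.173, and at days 5 and 9 the experimental values were 0.054 and 0.0802. *Myocd*, the smooth muscle coactivator myocardin, had 0.854, 0.85 and 0.947 against 0.496, 0.62 and 0.541, from 0.802 and 0.722 at day 0, so late values were higher than at day 0 in the experimental line and lower in the control line.

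*Nkx2-9*, a homeobox gene of the ventral neural tube, had 0.477, 0.557 and 0.776 against 0.144, 0.163 and 0.253, with 0.358 and 0.282 at day 0. *Flt3l*, a cytokine gene, was at 0.0133 or lower in both lines at days 0, 5 and 9 and at 0.167, 0.194 and 0.407 in the experimental line late, against 0, 0 and 0.0891. The other promoters higher in the experimental line were those of *Cdc42bpg*, a kinase gene, and of *Ush1g* and *Otop3*, which share their 5 cytosines and are a single measurement.

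Those lower in the experimental line late were *Ajm1*, *Slc29a1*, *Cacna1i*, E330017L17Rik and *Cdkl2*. *Slc29a1*, an equilibrative nucleoside transporter gene, had 0.519, 0.453 and 0.333 against 0.698, 0.64 and 0.664, from 0.431 and 0.447 at day 0. *Ajm1*, an apical junction gene, had 0.189, 0.137 and 0.232 against 0.449, 0.698 and 0.549, from 0.312 and 0.358. At *Cacna1i*, a T-type calcium channel gene, the control line was at 0.427, 0.158 and 0.22 late and the experimental line at 0.079, 0.0454 and 0.0656, close to the day 0 values of 0.101 and 0.107. None of the 12 passed the contrast with day 0 (adjusted p from 0.627 to 0.999 in limma).

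The start windows of *Kcnj5* (chr9:32344295-32344594, minus strand) and *Slc29a1* (chr17:45599569-45599868, minus strand) are printed in RefSeq sequence of GRCm38.p6 with the measured CpGs in capitals. Late, the first was higher and the second lower in the experimental line. Window values are given for days 12 to 20 only, so they show no change over time. The RefSeq start used for *Kcnj5* lies 36 bases from the one that set the promoter.
Kcnj5: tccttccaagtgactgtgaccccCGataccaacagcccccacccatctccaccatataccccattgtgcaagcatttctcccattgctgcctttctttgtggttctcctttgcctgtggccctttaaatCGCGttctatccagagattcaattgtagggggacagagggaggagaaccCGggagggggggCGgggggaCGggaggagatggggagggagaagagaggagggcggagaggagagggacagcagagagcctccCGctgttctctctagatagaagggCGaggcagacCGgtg
Slc29a1: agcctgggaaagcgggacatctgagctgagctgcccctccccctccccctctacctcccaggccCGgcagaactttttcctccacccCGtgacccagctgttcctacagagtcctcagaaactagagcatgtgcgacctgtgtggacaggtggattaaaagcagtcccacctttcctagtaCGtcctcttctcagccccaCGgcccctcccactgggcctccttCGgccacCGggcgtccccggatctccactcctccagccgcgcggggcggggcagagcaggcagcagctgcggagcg

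In the *Kcnj5* window 9 of 10 CpGs were measured, through 11 cytosines of both strands, and averaged 0.227, 0.295 and 0.315 in the experimental line against 0, 0.0825 and 0.0761 in the control line. In the *Slc29a1* window 6 of 16 were measured, with 0.444, 0.322 and 0 against 0.741, 0.707 and 0.73. The experimental library of day 20 had no methylation at all at these 6 CpGs, although its whole-promoter value was 0.333.

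Promoters of the clustered homeobox genes differed in both directions, with the wider differences upward. Hox genes set positional identity along the body axis, and fibroblasts keep a Hox pattern of their site of origin. Of 39 autosomal HoxA to HoxD genes 32 could be tested and none passed limma. In 5 (15.6%) all experimental values lay above the control values and in 6 (18.8%) below, where all promoters gave 15.5% and 4.49%. The median difference was -0.024, against 0.0029 over all promoters.

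Those above included anterior genes of 2 clusters. *Hoxa2* had 0.869, 0.708 and 0.761 against 0, 0 and 0.206, and *Hoxd4* had 0.546, 0.676 and 0.567 against 0, 0.203 and 0.137. *Hoxd4* was also apart at day 0 (0.5 and 0.182), and *Hoxa2* was not listed at every day. *Hoxc11* was apart by 0.0853.

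Those below were *Hoxb2*, *Hoxd12*, *Hoxb9*, *Hoxd1*, *Hoxd8* and *Hoxa10*. *Hoxb2* had 0.026, 0.0432 and 0.0893 against 0.282, 0.195 and 0.425, and *Hoxb9* had 0.0638, 0.0585 and 0.0479 against 0.201, 0.274 and 0.194. Both were lower in the experimental line at day 0 as well, with 0.143 and 0.286 at *Hoxb2* and 0.14 and 0.399 at *Hoxb9*. *Hoxd12* was lower over its 30 cytosines, whereas the 6 within 250 bases before to 50 after its start were higher in the experimental line, at 0.236, 0.279 and 0.243 against 0.0905, 0.118 and 0.232. *Hoxd8* was at 0.00898 or lower in the experimental line and between 0.0551 and 0.14 in the control line. *Hoxa5* and *Hoxc10* were of middle level in both lines and overlapped. Among antisense and opposite-strand transcripts of these clusters, 2 were tested, and *Hoxb3os* lay below with 0.189, 0.085 and 0.0478 against 0.581, 0.24 and 0.397.

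**Figure D4:**
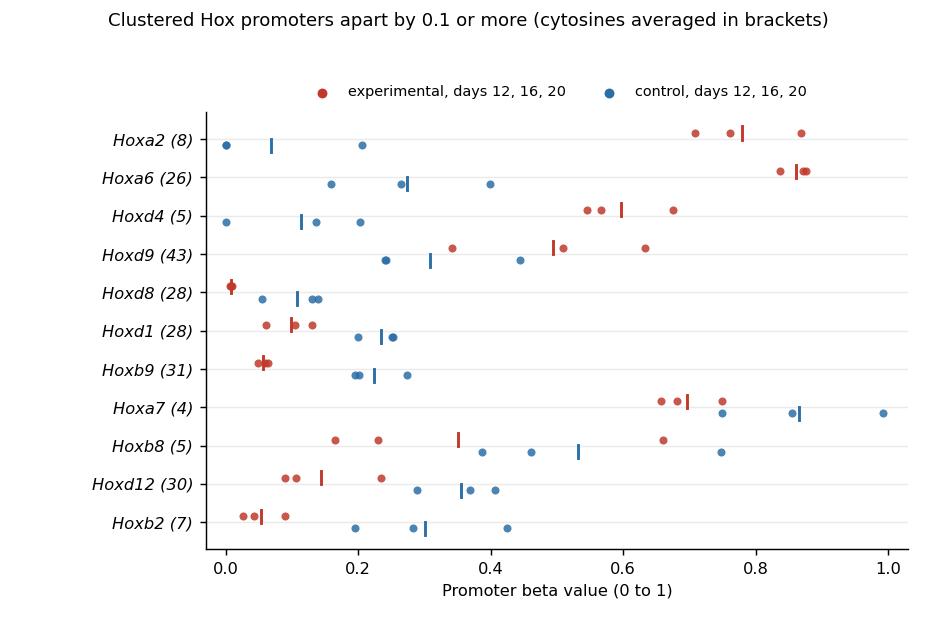
Promoter beta values of the clustered Hox genes whose means differed by 0.1 or more (4 higher and 7 lower in the experimental line), ordered by the difference between the lines, with 1 point per library of days 12, 16 and 20 (red experimental, blue control) and bars at the mean of 3. *Hoxa2*, *Hoxa6* and *Hoxd4* stand far to the right in the experimental line, and *Hoxb2*, *Hoxd12*, *Hoxb9*, *Hoxd1* and *Hoxd8* lie lower there with no overlap.

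The start window of *Hoxd4* (chr2:74721728-74722027, plus strand) is shown because all 5 of the cytosines behind its promoter value lie in it, at its only 4 CpGs, in RefSeq sequence of GRCm38.p6.
Hoxd4: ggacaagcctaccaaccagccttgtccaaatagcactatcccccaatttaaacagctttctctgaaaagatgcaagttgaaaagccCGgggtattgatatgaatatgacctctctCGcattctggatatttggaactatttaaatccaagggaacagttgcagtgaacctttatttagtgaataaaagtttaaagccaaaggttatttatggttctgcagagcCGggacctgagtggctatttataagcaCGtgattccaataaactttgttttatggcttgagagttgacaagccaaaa

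Homeobox, paired-box and other transcription factors of development outside the Hox clusters leaned upward, close to the background. Of 156 tested, none passed limma, 25 (16.0%) lay above and 8 (5.13%) below, with a median difference of 0.0133. *Nkx2-9* (0.417) and *Alx1*, a craniofacial homeobox gene, were the highest, the latter with 0.378, 0.617 and 0.391 against 0.0729, 0.183 and 0.0679. *Tfap2a*, a neural crest factor, had 0.647, 0.497 and 0.518 against 0.276, 0.452 and 0.213. *Zic1*, a factor of the dorsal neural tube, had 0.258, 0.32 and 0.291 against 0.0764, 0.106 and 0.094. Its day 0 difference, from 1 library per line, was -0.0716, and it did not pass the contrast with day 0.

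Wnt pathway genes, which encode secreted morphogens, their receptors and inhibitors, had 10 of 48 promoters above and 2 below, where all promoters gave 15.5% and 4.49%. The inhibitor *Sfrp5* had 0.119, 0.151 and 0.318 against 0, 0.0536 and 0.0551, and the ligand *Wnt5a* lay below with 0.212, 0.243 and 0.231 against 0.396, 0.338 and 0.342. Genes of the interferon and antiviral response had 1 of 32 above and 5 below, beside the same 15.5% and 4.49%. Among them *Mavs*, the mitochondrial antiviral adaptor, had 0.233, 0.141 and 0.17 against 0.466, 0.247 and 0.328, and *Irf5*, an interferon regulatory factor, differed by -0.202. *Parp14* was the member above, with 0.356, 0.371 and 0.386 against 0.268, 0.23 and 0.209.

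Among genes of the extracellular matrix and of fibroblasts, 7 of 56 lay above and 2 below, near the 15.5% and 4.49% of all promoters. Of those without overlap the cartilage collagens were the widest, with *Col11a2* at 0.627, 0.574 and 0.598 against 0.383, 0.147 and 0.309, beside *Col9a3* above. Imprinted genes, whose parental copies are marked by methylation, had 3 of 18 above and 0 below, also near these shares. *Magel2*, an imprinted gene of the Prader-Willi region, had 0.561, 0.545 and 0.58 against 0.0833, 0.163 and 0.33. Its day 0 difference, from 1 library per line, was 0.0082, and it did not pass the contrast with day 0.

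Endothelial genes had 2 of 17 above and 1 below, against 15.5% and 4.49% of all promoters. *Thbd*, the thrombin receptor thrombomodulin, had the widest difference of any list member, 0.887, 0.935 and 1 against 0.0719, 0.121 and 0.268, and the lines already differed by 0.841 at day 0. *Angptl4*, an inhibitor of lipoprotein lipase that hypoxia induces, had 0.237, 0.0905 and 0.0833 against 0.661, 0.554 and 0.468. Epithelial genes had 2 of 29 above and 2 below, among them *Krt7* with 0.694, 0.586 and 0.708 against 0.9, 0.812 and 0.904. None of the members of these lists passed limma.

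Promoters of the succinate dehydrogenase genes themselves were alike in the lines. All 8 succinate dehydrogenase subunit and assembly factor genes were tested, and the differences ran from -0.0185 to 0.0203. Of the 8, 2 lay above and 0 below, where all promoters gave 15.5% and 4.49%. *Sdhc* itself, the floxed gene, had 0.0722, 0.02 and 0 against 0.0913, 0.00909 and 0.0312, which overlapped. *Sdhb*, which encodes the iron-sulphur subunit, had 0.00357, 0.0127 and 0.00227 against 0, 0.000543 and 0.000424.

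*Ldha*, lactate dehydrogenase A, was methylated to a like degree in both lines, at 0.612, 0.723 and 0.65 against 0.593, 0.597 and 0.751 over 6 cytosines. *Pcx*, pyruvate carboxylase, had 0.0138, 0.00514 and 0.00327 against 0.122, 0.00413 and 0.00363, with the control library of day 12 apart from the rest. None of these 4 genes passed limma (adjusted p from 0.42 to 0.956). In the tricarboxylic acid cycle, anaplerosis and glutamine list 6 of 35 lay above and 3 below (all promoters 15.5% and 4.49%). Among those without overlap the differences ran from -0.0122, at the succinate-CoA ligase subunit gene *Suclg2*, to 0.0261, at the citrate carrier gene *Slc25a1*. The widest difference in the list was -0.183 at *Slc25a13*, an aspartate-glutamate carrier gene, where the groups overlapped.

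Of the glycolysis and hypoxia-response genes 8 of 38 lay above and 2 below, and the shares to set beside this and the next 3 lists are the 15.5% and 4.49% of all promoters. Differences in the glycolysis and hypoxia-response list ran from -0.424, at *Angptl4* given above, to 0.138. Of its members 2 differed by more than 0.1 upward and 3 by more than 0.1 downward. The enolase genes *Eno2* and *Eno3* had differences of 0.121 and 0.0825. Writers, erasers and readers of DNA methylation had 3 of 17 above and 1 below, and that one was *Tet1*, a methylcytosine dioxygenase gene, at 0.059, 0.051 and 0.0516 against 0.0733, 0.249 and 0.161. Other 2-oxoglutarate dioxygenases had 6 of 42 above and 0 below, led by the histone demethylase gene *Kdm6b* with 0.721, 0.629 and 0.709 against 0.468, 0.492 and 0.542. Chromaffin genes had 3 of 20 above and 0 below, among them *Chga*, the granule protein chromogranin A, at 0.228, 0.246 and 0.382 against 0.153, 0.0803 and 0.0617. Not a single member of these lists passed limma.

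**Figure D5:**
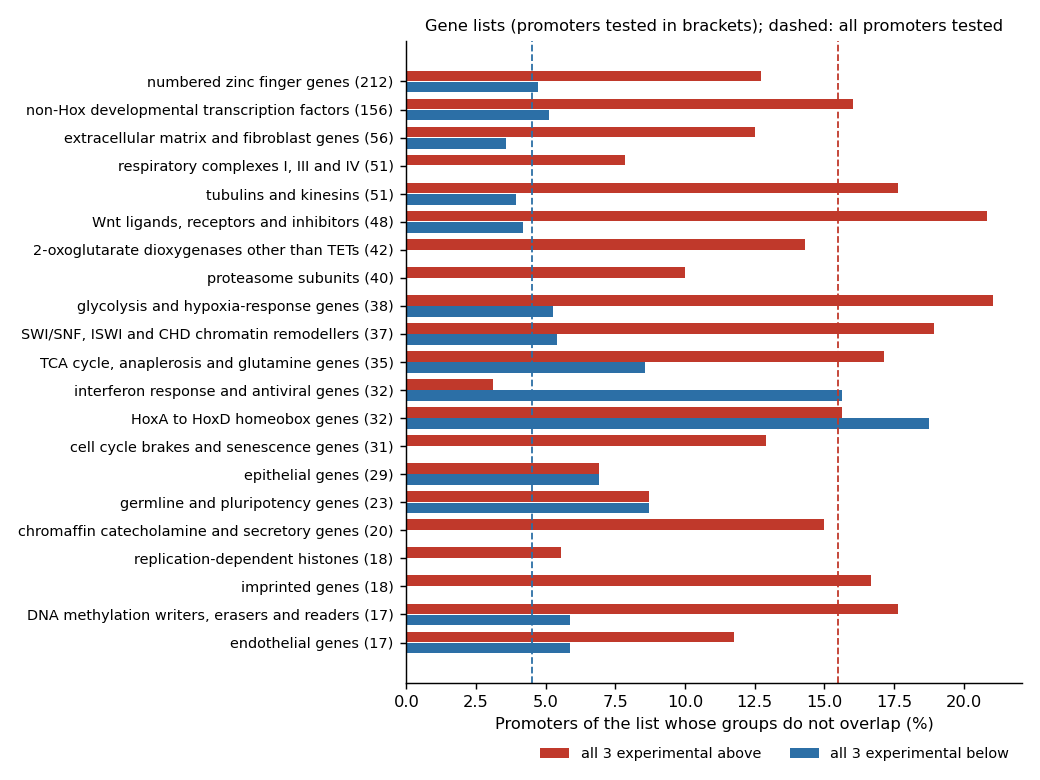
Share of the promoters of each gene list with all 3 experimental values above (red) or below (blue) all 3 control values at days 12 to 20, for lists with 15 or more promoters tested. Dashed lines mark the shares over all 13785 promoters, 15.5% and 4.49%, and the Hox and interferon lists are those whose blue bars reach beyond 15%.

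Methylation at promoters of cell type markers fitted fibroblasts only in part, and it measures the promoter and not expression. *Vim* and *Fn1*, defining mesenchymal genes, were at or near 0 in both lines (means 0.00834 and 0.00121 for *Vim*), and *Csf1r*, a macrophage gene, was methylated at 0.951 and 0.976. Other fibroblast markers were methylated, *Col1a2*, a collagen gene, at 0.657 and 0.748 and *Pdgfra*, a growth factor receptor gene, at 0.663 and 0.495. *Prrx1*, a mesenchymal homeobox gene, had 0.206, 0.27 and 0.463 in the experimental line and 0.915, 0.461 and 0.677 in the control line, which just overlapped, and 0.213 and 0.694 at day 0. Over the markers tested the median level was 0.109 for 7 of 10 fibroblast genes, 0.201 for 4 of 6 epithelial, 0.669 for 2 of 5 endothelial and 0.962 for 1 of 5 blood genes.

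Away from promoters no region of fixed size passed. Of 63195 windows of 1 kb outside promoters limma called none, with 7340 at an unadjusted p below 0.05, and 6810 lay above and 5057 below. Differences of 0.5 or more were present in 116 windows higher and 50 lower in the experimental line among those without overlap.

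The single cytosines that limma called were complete switches between the lines in the late libraries. Of 518129 cytosines whose values were not identical in all 6 libraries, limma called 52 (0.01%), 34 higher and 18 lower in the experimental line. All 52 were at 1 in every library of a line and at 0 in every library of the other, so no spread was seen in either line. The depth behind these values is unknown. Some were also apart at day 0, such as the *Hcn2* cytosine below, and others were not. At days 0, 5 and 9, chr4:40509844 was at 0.857, 1 and 1 in the experimental line and at 1, 0.75 and 1 in the control line. Of the 52, 6 lay in promoters, 32 elsewhere within gene bounds and 14 outside genes. Beside this, 220421 of all 703012 shared cytosines lay in promoters, those of identical value included. Of the 6 in promoters, 4 were in that of *Sult2b1*, close together between chr7:45759480 and chr7:45759509, and 1 in that of *Pomc*. Because the 52 are tied, those named are the first 4 of each direction when coordinates are sorted as text, in which chr10 to chr19 precede chr1.

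Among the cytosines at 1 in the experimental line, chr10:79718517 lies within *Hcn2*, a pacemaker channel gene, chr11:19010411 within *Meis1*, a homeobox cofactor of Hox proteins, and chr11:119460252 within *Rnf213*, a ubiquitin ligase gene. The fourth, chr10:72769461, is outside genes. The *Hcn2* cytosine was at 0.75 and 0 at day 0. Among those at 0 in the experimental line, chr10:116266786 lies within *Ptprr*, a tyrosine phosphatase gene, chr11:96344509 within *Hoxb3*, and chr12:56693500 within *Pax9*, a paired-box gene. The *Pax9* cytosine stood at 0.714 and 1 at day 0. The fourth is chr12:3954872 in the *Pomc* promoter, inside the window printed above, and there the day 0 values were 0 and 0.333.

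The count of called cytosines was not stable. Limma called none without the experimental library of day 20 (55614 at an unadjusted p below 0.05), none without the control library of day 12 (45368) and none without that of day 16 (44453), whereas it called 5896 without the experimental library of day 16. It called 128 without the experimental library of day 12 and 285 without the control library of day 20.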

How the data were processed

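Genomic DNA of the iMEF lines was profiled by RRBS. The authors aligned reads to mm10 with Bismark (version not given in the sources used here) and deposited, per library, the percent methylation of each listed CpG cytosine, without read counts. Positions were read as 0-based starts, and percents were divided by 100 to give beta values. Cytosines on autosomes 1 to 19 listed in all 6 libraries of days 12 to 20 entered. Values on both strands of a CpG were kept apart. Gene starts came from RefSeq genes of GRCm38.p6, which is mm10. A strand was found for 33543 of 47042 autosomal genes, 25748 from RefSeq promoter sequences of that build and the rest by symbol from an older annotation. Where both gave a strand, 15486 of 15528 were the same.

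Promoters (1500 bp before to 500 bp after a start, at least 3 cytosines), windows of 1 kb and cytosines were tested with limma 3.58.1 (R 4.3.3). The tested M-value was the log2 of (beta + 0.01)/(1 - beta + 0.01), and p-values were adjusted by Benjamini-Hochberg over all features of a kind, with a threshold of 0.05. Contrasts with earlier days used all 12 libraries in 6 groups. The cytosine test omitted 184883 cytosines (26.3%) that did not vary over the 6 libraries. The script was tested on simulated data in which 200 features were shifted on the M-value scale. Limma called 10 of 200 shifted promoters at a shift of 2 and 104 at a shift of 4. It called 0 of 200 shifted cytosines at either shift. A feature that did not pass may therefore still differ.

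Promoters were named by rule: up to 12 per direction with 5 or more cytosines, no overlap and an adjusted p below 0.05, filled with those of smallest p and a difference of 0.2 or more, keeping 1 gene where promoters shared over 50% of their cytosines. The members, the 25 gene lists and the tests were chosen with earlier results of these data known. Sex chromosomes were used only as described, and positions within exons or introns were not assigned. The values of 1 gene are not reported here.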

Additional observations from a re-analysis of the deposited data

Results flagged for a closer look

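Cytosines listed on the Y chromosome lie outside the autosomal comparison, and their number separated the lines: at least 1270 in each experimental library of days 12 to 20 and at most 204 in each control library. The same split stood at day 0, with 1553 against 166 Y cytosines. For differences between the lines on the autosomes, *Sdhc* genotype and embryos of origin cannot be told apart.

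At 3 promoters the late difference between the lines differed from that at day 0 by limma. At LOC108168713, a long non-coding RNA gene with 4 cytosines, the contrast was 6.45 on the M-value scale (adjusted p = 0.0486 in limma). Its late values were 0.58, 0.617 and 0.662 against 0.25, 0.45 and 0.369, and the day 0 values were 0.867 and 1. At days 5 and 9 the experimental line was already higher, by 0.504 and 0.505.

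At *Szrd1*, also with 4 cytosines, the contrast was 4.05 (adjusted p = 0.0141 in limma). It was at 0 in every library except the control library of day 0, at 0.133. At *Sv2a*, a synaptic vesicle protein gene with 4 cytosines, the contrast was -3.13 (adjusted p = 0.0437 in limma), and only the experimental library of day 0 was above 0, at 0.0714. Both therefore rest on 1 library each. Groups held at most 3 libraries, so single libraries were not screened as outliers.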

How the results depend on the processing

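The 4 promoters past the threshold became 9 with an offset of 0.05 (5 higher, 4 lower), 21 on beta values, 2 without cytosines of identical value, 15 within 500 bp of the start (11 higher, 4 lower), 22 with all 12 libraries in 6 groups (14 higher, 8 lower), and 0 to 22 with single libraries left out. The day as replicate block gave 0 promoters (1590 at an unadjusted p below 0.05) and 0 cytosines (46294). The labels give the day after doxycycline and no shared culture. Deviations of libraries of the same day had correlations of -0.0522 to -0.0143. Such correlations cannot decide whether libraries of a day were handled together, which was not tested. The 52 cytosines became 362 on beta values, 0 with a variance trend (38910 at an unadjusted p below 0.05), 4524 with identical cytosines kept, 7 with all 12 libraries, and 0 to 5896 with single libraries left out. Windows went from 0 to 1 with a variance trend and to 3 with at least 10 cytosines. The contrast with day 0 went from 3 promoters to 13 with an offset of 0.05, 41 on beta values, 0 with at least 5 cytosines (755 at an unadjusted p below 0.05) and 0 to 3 with single late libraries left out. The contrast with days 5 and 9 went from 0 to 1 on beta values and 0 to 2 with single libraries left out. The causes were not tested.

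Of the alternatives for the named promoters, 441 kept side and direction, 11 passed where the reported value did not, 15 did the reverse and 8 changed sign: *Sh2b3* to -0.36 within 500 bp of the start (adjusted p = 0.655 in limma), *Ldha* to -0.018 with array weights, and, with single libraries left out, *Sdhc* (-1.36 to 0.21), *Ldha* (-0.12 to 0.41) and *Pcx* (-1.44 to 0.29), on the M-value scale. Gm51701 and 3110053B16Rik each passed in 15 of 17 alternatives and lost their call with the day block and without the control library of day 16, whereas 3300002I08Rik passed in 11 of 16 and 5830432E09Rik in 9 of 15, the latter losing its call without the experimental library of day 20 and without each control library. The 207 promoters apart by 0.2 or more were 223 to 292 with single libraries left out, an alternative chosen after seeing the data. With fewer libraries the no-overlap rule is easier to meet, so these higher counts do not measure stability. Without read counts, the precision of a single cytosine is unknown.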

Other observations

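For other gene families, the shares over all promoters to set beside the counts are 15.5% with all experimental values above all control values and 4.49% below. Numbered zinc finger genes had 27 of 212 promoters above and 10 below, among them *Zfp710* with 0.397, 0.387 and 0.54 against 0.092, 0.0966 and 0.193. Tubulins and kinesins had 9 of 51 above and 2 below, chromatin remodellers 7 of 37 above and 2 below, respiratory complexes 4 of 51 above and 0 below, proteasome subunits 4 of 40 above and 0 below, and cell cycle brakes 4 of 31 above and 0 below. *Psmb7*, a proteasome subunit gene, had 0.121, 0.0765 and 0.0582 against 0, 0.00794 and 0.00139. It was at 0 in both lines at day 0, with 1 library per line, and did not pass the contrast with day 0.

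Germline and pluripotency genes had 2 of 23 above and 2 below, with *Gdf3*, a growth factor gene of early embryos, at 0.725, 0.548 and 0.836 against 1, 1 and 0.954. Replication-dependent histone genes had 1 of 18 above and 0 below. None of 2 clustered protocadherin promoters and none of 5 blood cell gene promoters was free of overlap. No member of the 25 lists passed limma, and 0 to 28 members of a list had an unadjusted p below 0.05.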
